A study of Mus musculus with 4 samples.

Results

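The proteasome is the barrel-shaped protease that degrades ubiquitin-tagged proteins. Its core particle is built of rings of alpha subunits (Psma genes), which gate the entrance, and of beta subunits (Psmb genes), some of which cut peptide bonds. Regulatory particles dock on the ends: one with a ring of ATPases (Psmc genes) that unfolds substrates and non-ATPase subunits (Psmd genes) that bind and strip ubiquitin, and activators (Psme genes) that open the gate without ubiquitin. The genes examined here are those whose symbol in the platform annotation consists of Psm, a letter from a to g and a digit. They numbered 48 of the 12393 genes with a single-symbol probe set, with 85 of 22626 probe sets other than controls. Of the 48, Psmc3ip and Psme3ip1 encode binding partners that are not part of the particle and are given apart. The other 46, called proteasome genes below, comprised 18 of the core (30 probe sets), 23 of the regulatory particles (44 probe sets) and 5 for an inhibitor and assembly chaperones (9 probe sets). The probe set of Psme2 also matched Psme2b and was left out.

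RNA came from mouse CH10T1/2 cells, an embryonic fibroblast line able to take up cartilage, bone, fat or muscle fates, and was measured on 4 Affymetrix arrays, 1 per group. The groups were cells stably transfected with the R150C variant of PTHR1, the receptor for PTH and PTHrP, given 1e-07 M PTHrP for 1 h or carrier, and cells transfected with wild-type (WT) PTHR1 given PTHrP in the same way or left as control. For the WT control array the sample labels name no carrier, which is taken from the design text. All cells had first spent a night without serum. Each receptor was represented by 1 transfected line, so receptor and line cannot be told apart, and the sources used here do not say whether a line was a clone.

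Values are deposited fluorescence intensities on a linear scale, called signal. Signals of different probe sets depend on the probes, so levels are compared between arrays and not between genes. The brightest probe set stood for each gene, and 6197 genes with a mean above a signal of 62.6 were kept for testing. Differences are on the log2(signal + 16) scale, centred on the kept genes, where 1.5-fold is 0.58. With 1 array per group, a difference between 2 arrays has no test. The size of its error was gauged by how far the kept genes depart from additive effects of receptor and PTHrP, an SD of 0.25. Receptor and PTHrP effects over all 4 arrays were tested with limma's additive model, which leaves 1 residual degree of freedom. All 12 fibroblast markers on the list passed the filter, with a median signal of 1233 and 1203 in the R150C line (PTHrP, control) against 1597 and 1545 in the WT line. Of 18 macrophage, endothelial and epithelial markers 2 passed the filter, Csf1r (65.8 to 103.1 over the arrays) and Krt8 (65.2 to 83.9). Tie1, Epcam and C1qa, among the dimmest of the others, read 4.3 or less in every array. Of 5 cartilage markers 2 passed the filter, Col2a1 (1105.9 to 1481.0) and Sox9 (112.4 or more in every array).

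Between the receptor lines no proteasome gene passed limma's test. Of the 46 genes 43 were kept, and of these 0 were higher and 0 lower in the R150C line at an adjusted p under 0.05, while 4 (Psme3, Psmg1, Psmf1 and Psma6) had an unadjusted p under 0.05. Over all kept genes limma called 9.7% (601 genes, 5.52% higher and 4.18% lower), and 1579 had an unadjusted p under 0.05. The fitted differences of the 43 ran from -0.37 (Psmg1) to 0.40 (Psme3), with standard errors from 0.15 to 0.18. Their median was -0.11, against -0.06 over all kept genes. For 34 of the 43 the 95% interval of the difference lay inside 1.5-fold in both directions. These intervals, like those for PTHrP below, rest mostly on an error that limma pooled over genes. That pooled error carries 9.68 prior degrees of freedom, beside 1 residual one. With 1 array per group, the intervals do not cover variation between replicate cultures or lines. The intervals that reached farthest were those of Psmc5 (to -0.72) and Psme3 (to 0.73), past 1.5-fold.

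**Figure D1:**
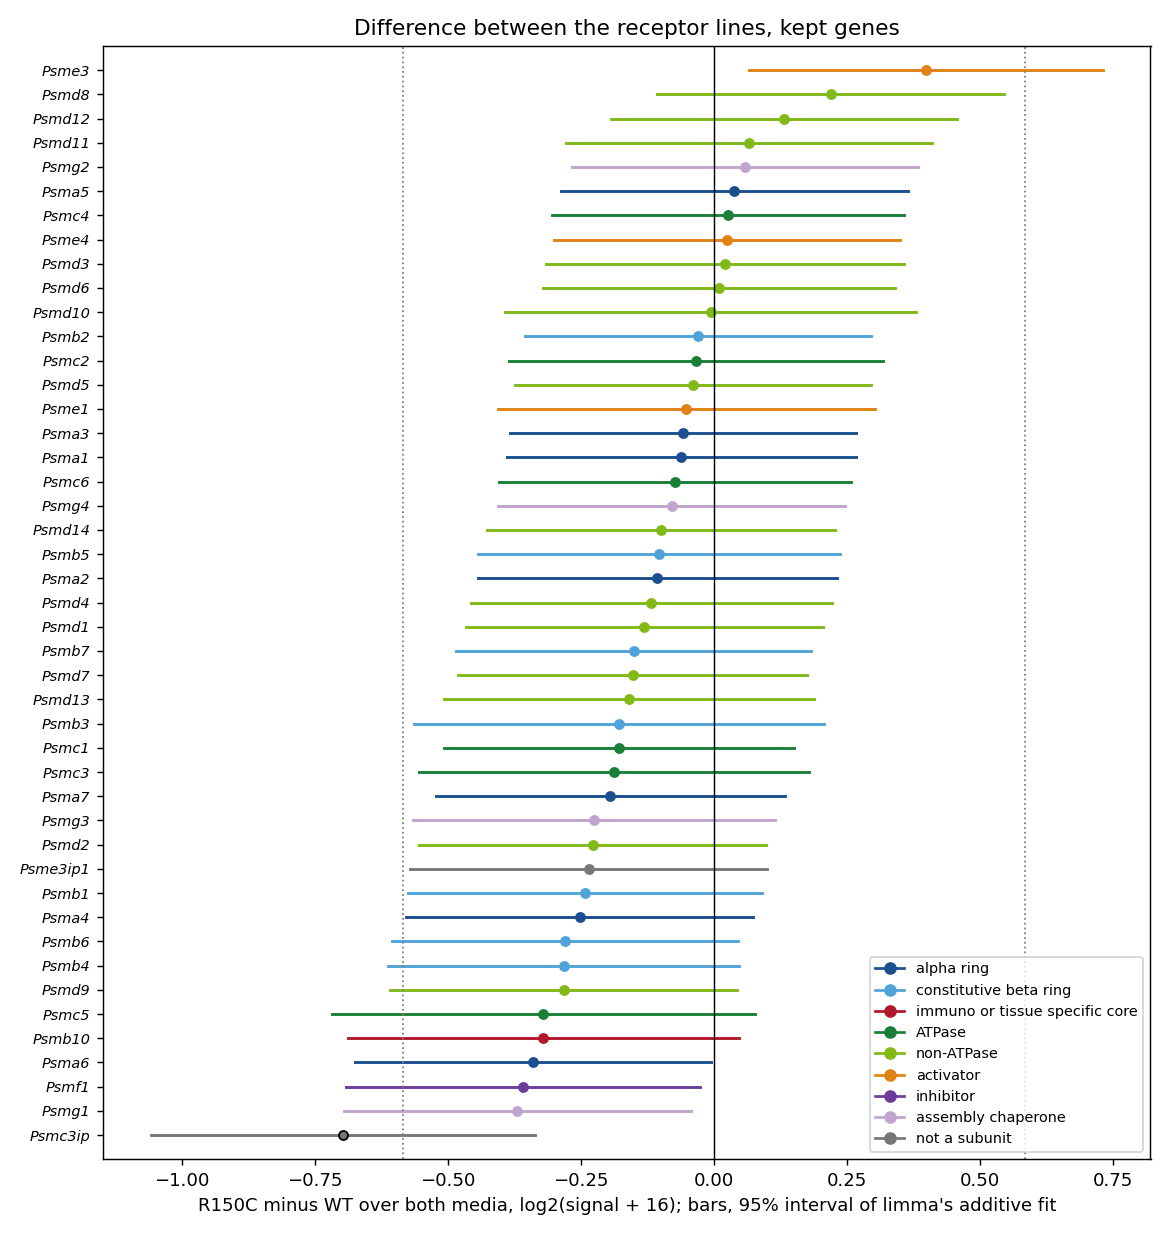
R150C minus WT over both media for the 43 kept proteasome genes and the 2 pattern matches that are no subunit (log2 scale, x axis; genes run down the y axis). Points are limma estimates, bars their 95% intervals, colours the role in the particle, dotted lines 1.5-fold, and the black outline marks an adjusted p under 0.05. The interval of Psmc3ip alone lies wholly on 1 side of 0 with that outline.

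None of the 15 kept core genes passed the test, and 14 of them had fitted differences below 0, with a median of -0.18. Differences below 0 were found in 58.8% of all kept genes, in 89.6% of oxidative phosphorylation genes and in 81.8% of ribosomal protein genes. Among the alpha subunits, Psma2 had 1640 and 1705 in the R150C line (PTHrP, control), against 1917 and 1632 in the WT line. Psma3 had 1468 and 1314 in the R150C line, against 1471 and 1371 in the WT line. Both were slightly lower in R150C cells under PTHrP, by less than the spread of 0.25. Psma1 had 425.7 and 437.5 in the R150C line, against 460.1 and 425.8 in the WT line. Psma4 and Psma7 were lower in the R150C line in both media, as were 40.4% of all kept genes. Psma4 had 1070 and 1235 in the R150C line against 1284 and 1414 in the WT line. Its fitted difference was -0.25 (SE 0.15, limma adjusted p = 0.312). Psma7 had 812.0 and 822.3 in the R150C line against 962.9 and 879.8 in the WT line, a fitted difference of -0.19 (limma adjusted p = 0.442). Psma5 differed by 0.04. The median over the 7 alpha subunit genes was -0.11.

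The beta ring holds the catalytic sites. Psmb5, Psmb6 and Psmb7 encode the subunits with chymotrypsin-like, caspase-like and trypsin-like activity. Psmb5 had 1433 and 1168 in the R150C line (PTHrP, control), against 1367 and 1365 in the WT line, so the groups overlapped. Psmb6 had 830.4 and 697.0 in the R150C line, against 985.3 and 840.5 in the WT line. The R150C value was the lower in both media, as in 40.4% of all kept genes. The fitted difference of Psmb6 was -0.28 (SE 0.15, limma adjusted p = 0.265). Psmb7 had 2557 and 2649 in the R150C line, against 3032 and 2659 in the WT line, a fitted difference of -0.15. All 7 constitutive beta subunit genes (Psmb1 to Psmb7) had fitted differences below 0, from -0.28 (Psmb4) to -0.03 (Psmb2), and none passed the test. Their median of -0.18 stood beside -0.06 for all kept genes.

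When interferon acts on a cell, Psmb8, Psmb9 and Psmb10 replace Psmb5, Psmb6 and Psmb7 in newly made particles, called immunoproteasomes, which favour peptides for MHC class I. Psmb8 had 5.8 and 7.6 in the R150C line (PTHrP, control), against 5.0 and 2.4 in the WT line. Psmb9 had 7.0 and 5.5 in the R150C line, against 15.4 and 10.0 in the WT line. The first quartile of all probe sets was between 12.6 and 15.2 in the arrays, and both genes read below that of their array except Psmb9 on the WT PTHrP array. Psma8, a testis-specific alpha subunit gene, had 3.6 and 3.5 in the R150C line against 13.2 and 1.0 in the WT line. These 3 genes were below the filter and were not tested. Psmb10 was above it, with 88.9 and 88.8 in the R150C line against 138.1 and 91.4 in the WT line. Only its WT PTHrP value stood apart, so that R150C minus WT was -0.58 under PTHrP and -0.07 in control medium (limma adjusted p over both media 0.257). Of the interferon and MHC class I genes on the list, Tap1 and Tap2 (peptide transporters) were also below the filter, with at most 54.1. H2-K1 and Erap1 were below it too. B2m (1970.7 to 2576.5 over the arrays), Tapbp (217.6 to 309.5) and H2-D1 (68.1 to 112.8) were kept. Irf1, an interferon-induced transcription factor, was lower in the R150C line by limma's test (-0.69, SE 0.15, adjusted p = 0.0145), the 1 gene called of 4 kept, where 9.7% of all kept genes were called either way. It had 132.6 and 121.4 in the R150C line against 210.0 and 212.2 in the WT line.

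The promoters of the constitutive and the interferon-inducible catalytic genes are shown as a description. No motif of interferon-induced factors was searched for. Psmb7 was not matched in the promoter table. The windows run from 250 bases before to 50 after the gene start (RefSeq, GRCm38.p6, 5′ to 3′ on the gene's strand). Capitals mark matches, on either strand, to TGACNNNGC (the core of the antioxidant response element, bound by the Nfe2l1 and Nfe2l2 factors with small Maf proteins), to CCAAT (the NF-Y box) or to TGACGTCA (the cAMP response element). The Psmb5 window is chr14:54617946-54618245 on the minus strand and that of Psmb6 is chr11:70525107-70525406 on the plus strand. The Psmb8 window is chr17:34197945-34198244 (plus) that of Psmb9 is chr17:34187281-34187580 (minus) and that of Psmb10 is chr8:105938343-105938642 (minus).
Psmb5: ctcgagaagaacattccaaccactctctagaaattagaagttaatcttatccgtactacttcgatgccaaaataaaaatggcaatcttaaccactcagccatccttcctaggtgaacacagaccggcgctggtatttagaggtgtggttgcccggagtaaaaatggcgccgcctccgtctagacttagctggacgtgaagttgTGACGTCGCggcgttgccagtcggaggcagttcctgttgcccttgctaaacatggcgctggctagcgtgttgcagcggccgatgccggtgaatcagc
Psmb6: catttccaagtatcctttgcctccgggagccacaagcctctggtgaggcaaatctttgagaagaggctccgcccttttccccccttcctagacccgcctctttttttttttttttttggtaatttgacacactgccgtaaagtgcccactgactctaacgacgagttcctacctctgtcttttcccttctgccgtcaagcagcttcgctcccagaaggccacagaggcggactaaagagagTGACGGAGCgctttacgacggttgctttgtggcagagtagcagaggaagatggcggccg
Psmb8: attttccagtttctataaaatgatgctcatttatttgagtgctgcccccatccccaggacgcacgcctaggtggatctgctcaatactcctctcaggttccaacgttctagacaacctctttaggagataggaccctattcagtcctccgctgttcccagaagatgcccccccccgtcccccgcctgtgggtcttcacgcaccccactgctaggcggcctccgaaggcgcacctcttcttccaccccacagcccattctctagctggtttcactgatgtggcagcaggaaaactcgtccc
Psmb9: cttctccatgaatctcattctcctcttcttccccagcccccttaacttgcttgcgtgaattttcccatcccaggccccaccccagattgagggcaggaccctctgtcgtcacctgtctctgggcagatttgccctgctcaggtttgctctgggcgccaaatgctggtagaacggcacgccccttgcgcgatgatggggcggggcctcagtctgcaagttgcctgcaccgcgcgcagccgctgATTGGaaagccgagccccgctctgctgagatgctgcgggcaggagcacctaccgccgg
Psmb10: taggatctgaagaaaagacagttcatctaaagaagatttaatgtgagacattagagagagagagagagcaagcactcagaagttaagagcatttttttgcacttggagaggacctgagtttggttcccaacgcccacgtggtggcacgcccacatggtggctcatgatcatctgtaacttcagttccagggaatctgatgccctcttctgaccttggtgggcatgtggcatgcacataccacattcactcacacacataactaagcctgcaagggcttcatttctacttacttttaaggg
The Psmb5 and Psmb6 windows each held 1 antioxidant response element core, the Psmb9 window 1 NF-Y box on the other strand, and the Psmb8 and Psmb10 windows none of the motifs. Across 40 windows of 38 proteasome genes found in the RefSeq table, 6 (15.0%) held the antioxidant response element core (Psmb5, Psmb6, Psmc6, Psmd9, Psmd12 and Psme4), against 12.4% of all 32851 windows. The NF-Y box was in 13 (32.5%), against 37.4% of all windows. The cAMP response element, the site of the factor downstream of PTHrP and cAMP, was in 0 of the 40, against 1.79% of all windows. A match of letters is a description and not a bound site.

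The ATPase ring of the regulatory particle threads substrates into the core. In control medium R150C minus WT ran from -0.10 (Psmc1) to 0.17 (Psmc2) over its 6 genes. Under PTHrP all 6 were lower in the R150C line, with a median of -0.24. So were 57.6% of all kept genes, 88.1% of oxidative phosphorylation genes and 81.8% of ribosomal protein genes. Psmc5 had the largest difference of the 6 under PTHrP, with 735.4 and 887.2 in the R150C line (PTHrP, control) against 1154 and 856.1 in the WT line. It differed by -0.66 under PTHrP and by 0.02 in control medium. By the brightest probe sets it was the 1 proteasome gene of 43 at least 1.5-fold apart in any of the 4 pairs of arrays. That is a share of 2.33%, against 19.7% over all kept genes. Less bright probe sets of Psmc4 and Psme4 above the filter, given below, also reached 1.5-fold. Over all kept genes 6.05% were at least 1.5-fold higher and 5.26% lower under PTHrP. In control medium 5.99% were higher and 5.62% lower, and 0 proteasome genes reached 1.5-fold either way by their brightest probe sets. Psmc3 had 900.3 and 1045 in the R150C line, against 1208 and 978.8 in the WT line. In both genes the WT PTHrP array was the highest, and limma's adjusted p over both media was 0.294 for Psmc5 and 0.512 for Psmc3. Psmc2 had 1526 and 1593 in the R150C line, against 1773 and 1386 in the WT line, with overlapping groups. Psmc1 had 430.7 and 462.9 in the R150C line, against 508.7 and 487.6 in the WT line.

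The 14 Psmd genes include the subunits of the lid and base that recognise and remove ubiquitin, as well as assembly factors. Psmd2, a scaffold of the base, had 1726 and 1509 in the R150C line (PTHrP, control), against 2056 and 1680 in the WT line. Psmd14, the deubiquitinase of the lid, had 1110 and 1152 in the R150C line, against 1219 and 1163 in the WT line. Psmd4, a ubiquitin receptor, had 629.2 and 589.8 in the R150C line, against 748.6 and 564.2 in the WT line. Fitted differences of these were -0.23, -0.10 and -0.12, none past the test. The largest fitted difference upwards among the Psmd genes was that of Psmd8, a lid subunit gene, with 1000.3 and 1135 in the R150C line against 820.2 and 979.7 in the WT line. Psmd8 was higher in the R150C line in both media, as were 27.9% of all kept genes. Its fitted difference was 0.22 (SE 0.15, limma adjusted p = 0.383). Psmd12, another lid subunit gene, had 662.6 and 706.5 in the R150C line, against 590.5 and 633.4 in the WT line, and a fitted difference of 0.13. Psmd9 and Psmd10 encode chaperones that help to build the base. Psmd9 had 147.1 and 124.7 in the R150C line against 185.7 and 146.3 in the WT line (fitted difference -0.28). Psmd10, known as gankyrin, had 111.0 and 101.4 in the R150C line against 85.6 and 126.8 in the WT line, with the WT values on both sides of the R150C values. The median over the 14 genes was -0.07.

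Among the activators, Psme1 encodes the alpha chain of the interferon-inducible activator, Psme3 its nuclear relative and Psme4 a large single-chain activator. Psme1 had 338.6 and 236.3 in the R150C line (PTHrP, control), against 297.2 and 280.0 in the WT line, with overlapping groups and a fitted difference of -0.05. Psme3 had 187.7 and 174.0 in the R150C line against 125.9 and 135.3 in the WT line. The R150C value was the higher in both media, as in 27.9% of all kept genes. The fitted difference was 0.40 (SE 0.15, limma adjusted p = 0.129). A second Psme3 probe set above the filter went the other way, with 121.2 and 161.0 in the R150C line against 139.0 and 204.1 in the WT line, a difference of -0.27. Psme4 had 436.3 and 426.2 in the R150C line, against 416.4 and 414.9 in the WT line, a fitted difference of 0.02. Another Psme4 probe set above the filter had 230.5 and 191.8 in the R150C line against 145.2 and 252.4 in the WT line. By that probe set R150C minus WT was 0.59 under PTHrP and -0.40 in control medium. Its PTHrP response was 0.24 in the R150C line and -0.76 in the WT line.

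Of the 5 inhibitor and chaperone genes 4 had fitted differences below 0, where 58.8% of all kept genes did, and none passed the test. Psmf1 encodes a protein that inhibits the core particle in vitro. It had 133.2 and 98.2 in the R150C line (PTHrP, control) against 159.1 and 138.2 in the WT line, a fitted difference of -0.36 (limma adjusted p = 0.166). Its 3 other probe sets, all below the filter, had differences from -0.50 to -0.36. Psmg1, a chaperone for alpha ring assembly, had 311.1 and 254.3 in the R150C line against 385.8 and 338.1 in the WT line, a fitted difference of -0.37 (SE 0.15, limma adjusted p = 0.148). Both genes were lower in the R150C line in both media, as were 40.4% of all kept genes. Psmg3 had 176.8 and 123.6 in the R150C line against 184.1 and 161.4 in the WT line (-0.23), and Psmg4 differed by -0.08. Psmg2 differed by 0.06 in its brightest probe set and by -0.31 in its other one.

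**Figure D2:**
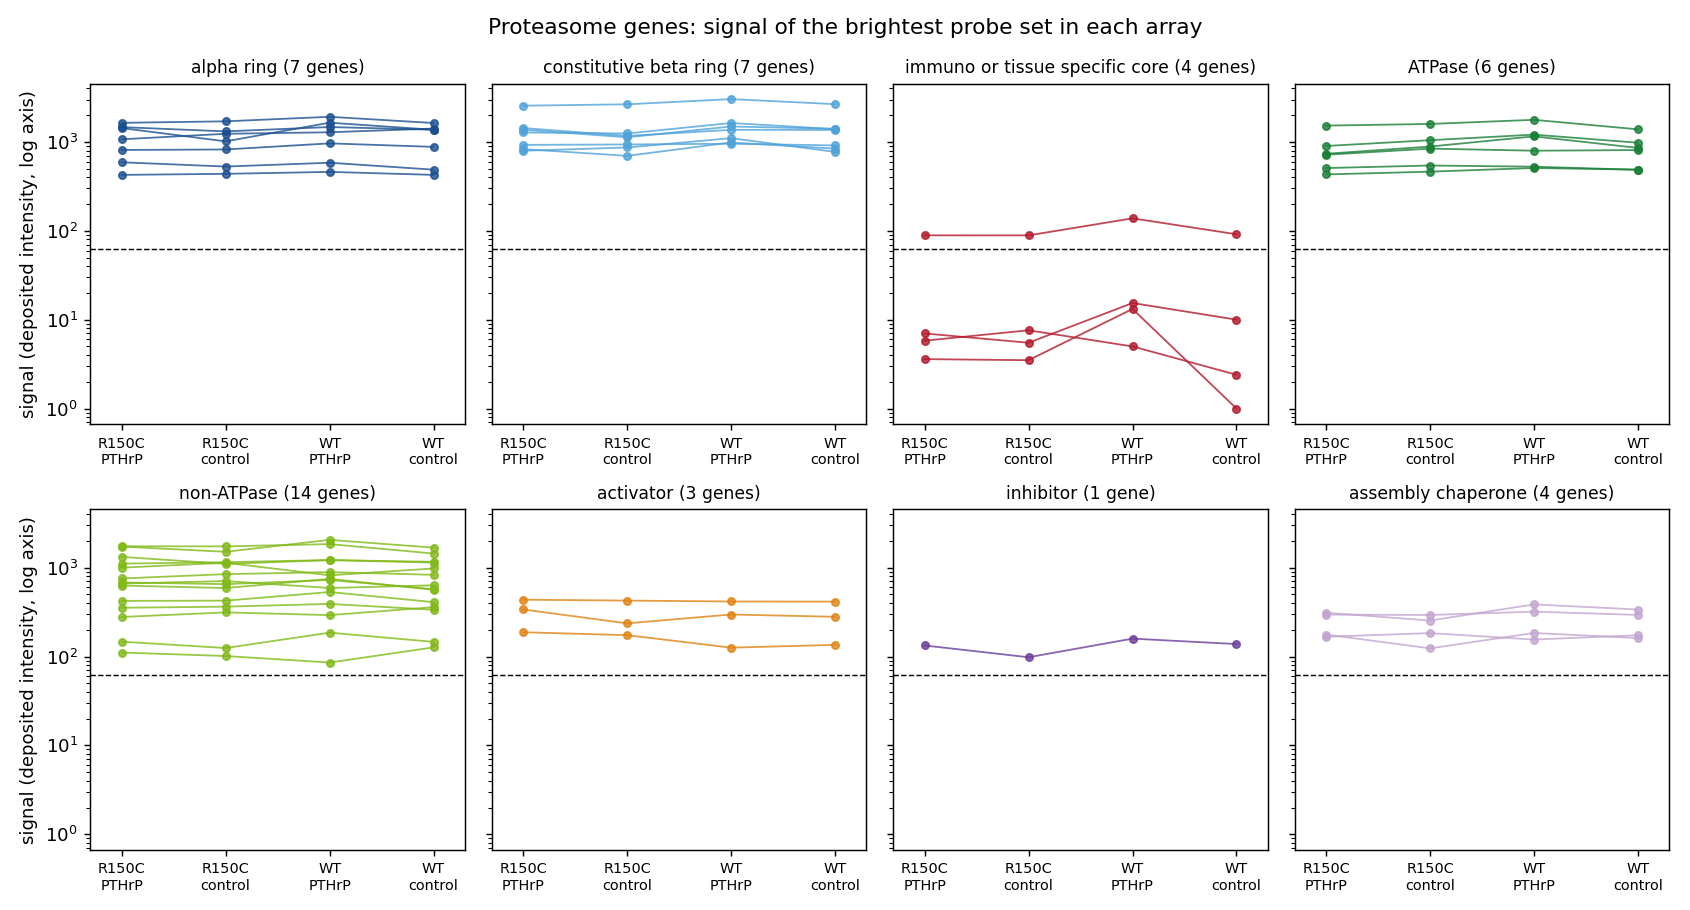
Signal of the brightest probe set of each of the 46 proteasome genes in the 4 arrays (log axis), by role. Each line is 1 gene, the dashed line is the filter at 62.6. Lines lie at 85.6 to 3032 in every role except the interferon-inducible and tissue-specific core genes. Of those, 3 lie below 16 in every array.

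The gene called by limma among the pattern matches was Psmc3ip, which encodes a partner protein of recombinases in meiosis and not a proteasome subunit. It had 130.9 and 91.1 in the R150C line (PTHrP, control), against 183.8 and 183.7 in the WT line. The R150C value was the lower in both media, as in 40.4% of all kept genes, by -0.46 under PTHrP and -0.93 in control medium. Psmc3ip was lower over both media by limma (-0.70, SE 0.16, adjusted p = 0.0217). The call was lost without the filter on dim genes (adjusted p = 0.236) and with every probe set as a row of its own (0.0604), with adjusted p from 0.00747 to 0.236 over the gene-level settings. Psme3ip1, a partner of the nuclear activator, had 186.8 and 155.3 in the R150C line against 199.8 and 199.2 in the WT line (-0.24, limma adjusted p = 0.362).

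PTHrP for 1 h gave no called proteasome gene. limma called 0 of the 43 higher and 0 lower over both lines, as it did for all 6197 kept genes (0.0%), with an unadjusted p under 0.05 for 1 of the 43 (Psma6) and 345 of the 6197. Fitted PTHrP differences ran from -0.24 (Psmd7) to 0.36 (Psma6), with a median of 0.07 against 0.01 over all kept genes, and the 95% interval lay inside 1.5-fold for 37 of the 43. Psmd8 (-0.23), Psmd10 (-0.20), Psmg3 (0.31) and Psme1 (0.27) completed the 3 lowest and 3 highest. The median response of the 43 was -0.01 in the R150C line, against -0.01 over all kept genes, and 0.11 in the WT line, against 0.03 over all kept genes. By their brightest probe sets, 0 of the 43 reached 1.5-fold upwards and 0 downwards in each line. After PTHrP 1.19% and 0.645% of all kept genes did so in R150C cells, and 1.39% and 2.34% in WT cells. The ratio of the Gapdh 3′ control to its 5′ control, a measure of RNA quality, was higher with PTHrP, at 1.21 and 1.17 on the PTHrP arrays (R150C, WT) against 0.991 and 0.845 on the control arrays. The actin ratio was 2.31 and 2.13 in the R150C line (PTHrP, control) against 2.39 and 1.43 in the WT line, so that by actin the WT control array stood apart. The part of either in these differences was not tested.

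Responses of the ATPase genes to PTHrP differed by line in sign for 5 of 6, within a range of -0.27 to 0.40 beside the error SD of 0.25. After PTHrP all 6 were below control in the R150C line (median -0.16) and 5 of 6 above control in the WT line (median 0.19), with Psmc6 (-0.04) the exception. The second Psmc4 probe set was below control in both lines (-0.15 in R150C and -0.21 in WT). Psmc5 responded by -0.27 in the R150C line and 0.40 in the WT line, and Psmc3 by -0.22 and 0.28. The core genes had a median of -0.01 in the R150C line and 0.17 in the WT line, where 13 of 15 lay above 0, against 54.6% of all kept genes. This count depended on the scaling. It was 10 of 15 (median 0.06) after cyclic loess and 12 (0.09) after quantile normalization. Without centring it was 14 (0.19), and centred on all probe sets 15 (0.36). The difference between the responses has no test here. By the brightest probe sets it was at least 1.5-fold upwards in 1 proteasome gene (Psmd10) and downwards in 2 (Psmc5 and Psmb3). Of all kept genes 4.81% and 3.89% reached 1.5-fold. In the less bright Psme4 probe set given above, it was 0.99. Psmb3, a non-catalytic beta subunit gene, had 794.6 and 865.8 in the R150C line (PTHrP, control) against 1102 and 772.8 in the WT line.

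**Figure D3:**
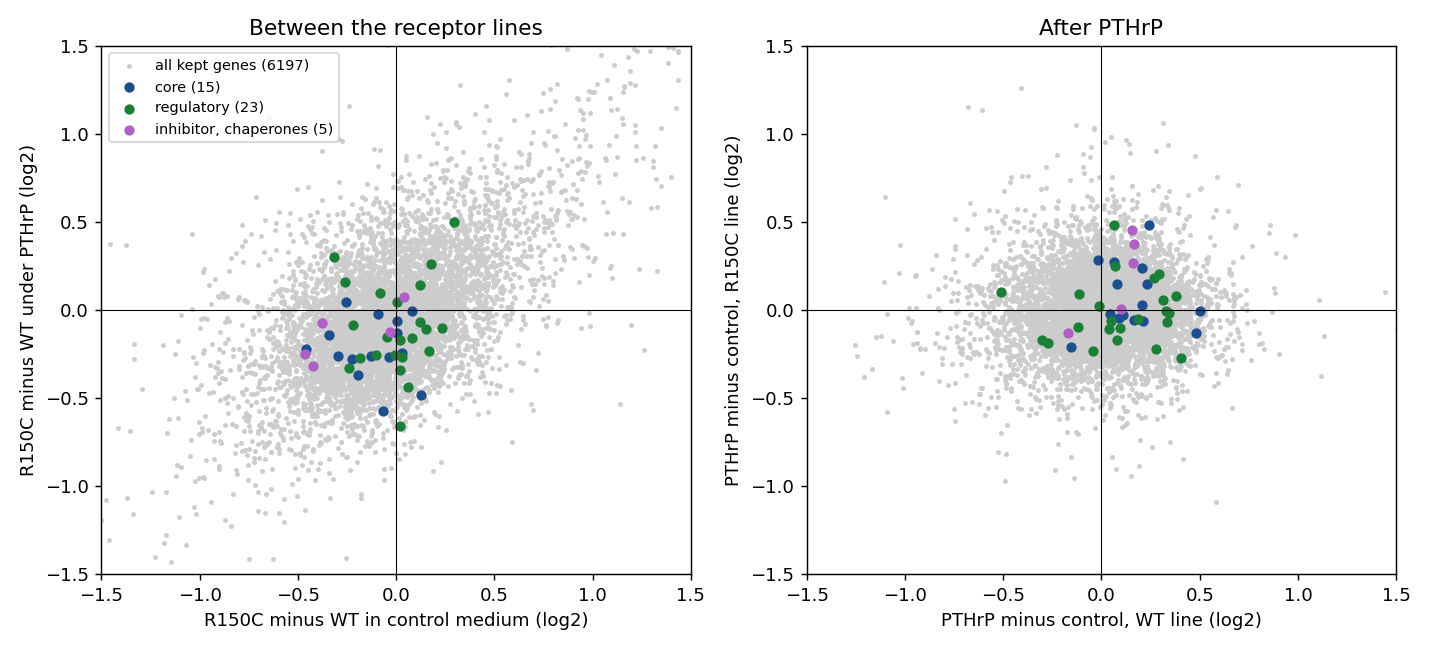
Differences between pairs of arrays (log2) for core, regulatory and other proteasome genes over all 6197 kept genes in grey. Left, R150C minus WT under PTHrP (y axis) and in control medium (x axis), right, PTHrP minus control in the R150C line (y axis) and in the WT line (x axis). Axes stop at 1.5, which leaves out 78 and 6 genes. The proteasome genes sit near the centre, displaced downwards on the left (median -0.16 under PTHrP against -0.03 in control medium) and to the right on the right (0.11).

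One array carried much of what differed. Of the 43 kept genes 30 (69.8%) had their highest centred value on the WT PTHrP array, against 35.0% of all kept genes. The oxidative phosphorylation and cytosolic ribosomal protein genes had shares of 83.6% and 65.9%, so this was not particular to the proteasome genes. The lower R150C values under PTHrP (median -0.16, 34 of 43 below 0) and the higher WT values after PTHrP (0.11, 33 of 43 above 0) both use that array. Over all kept genes 57.6% were below 0 in the first of these comparisons and 54.6% above 0 in the other. Among oxidative phosphorylation genes the shares were 88.1% and 91.0%, and among ribosomal protein genes the counts were 36 and 33 of 44. The comparisons that do not use it had medians of -0.03 (R150C minus WT in control medium) and -0.01 (PTHrP in the R150C line). The number highest on the WT PTHrP array was 23 of 43 (53.5%, against 32.7% of all kept genes) after cyclic loess, which removes shifts that depend on brightness, and from 27 to 33 under the other scalings. Lower values in the R150C line in both media were found in 19 of the 43 (44.2%), against 40.4% of all kept genes.

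The proteasome genes had a narrower spread than all kept genes, more so between the lines than after PTHrP. In 25 of the 43 (58.1%) all 4 differences between arrays stayed within 0.32 on the log2 scale, against 39.5% of all kept genes. The SD over the 43 genes was 0.23 for R150C minus WT under PTHrP and 0.19 in control medium, against 0.43 and 0.43 over all kept genes. Subunits of other large complexes are given for comparison. For 67 oxidative phosphorylation subunits the SDs of R150C minus WT (under PTHrP, control medium) were 0.21 and 0.19, with 49.3% within 0.32 in all 4. For 44 cytosolic ribosomal protein genes they were 0.27 and 0.21, with 43.2%. Both sets had smaller SDs than the proteasome genes for PTHrP minus control. In the WT and R150C lines these were 0.20 and 0.16 for oxidative phosphorylation and 0.17 and 0.18 for ribosomal protein genes. The medians of these sets for R150C minus WT over both media were -0.17 and -0.18, and that of the proteasome genes was -0.11.

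**Figure D4:**
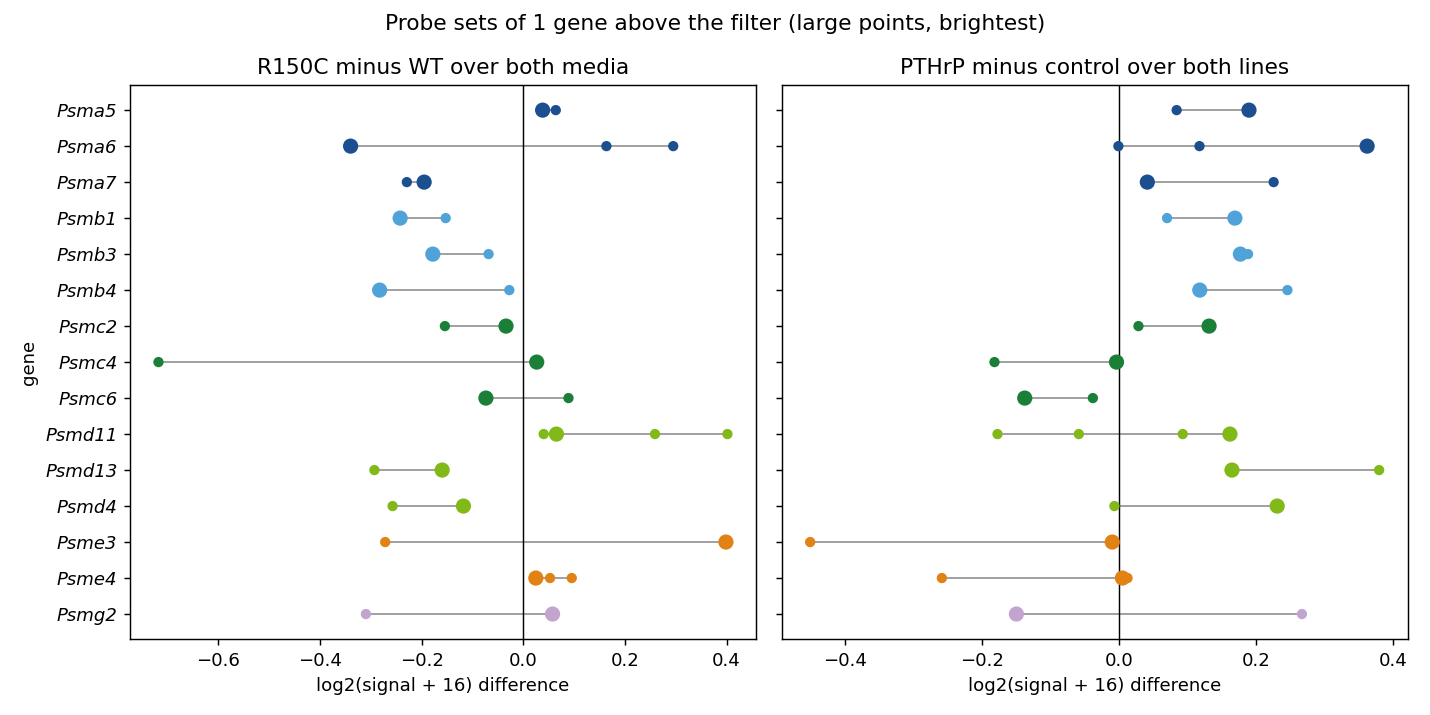
Differences of all probe sets above the filter for the 15 proteasome genes with more than 1 (log2, x axis; genes on the y axis), R150C minus WT on the left and PTHrP minus control on the right. The large point is the brightest probe set, which stood for the gene. In Psma6, Psmc4, Psme3 and Psmg2 the points on the left fall on both sides of 0.

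Probe sets of 1 gene did not always share a direction. Of 15 genes with more than 1 probe set above the filter, 4 had R150C minus WT differences of opposite sign at least 0.32 apart, and 3 had such PTHrP differences, 5 genes in all. For Psmc4, an ATPase gene, the brightest probe set had 508.1 and 542.7 in the R150C line (PTHrP, control) against 526.4 and 485.7 in the WT line, a difference of 0.03. Its other probe set had 112.4 and 126.0 in the R150C line against 188.1 and 216.9 in the WT line, a difference of -0.72 that passed limma's test when every probe set was a row (adjusted p = 0.0363). The 2 probe sets thus gave different answers for 1 gene. For Psma6 the brightest probe set had 1432 and 1015 in the R150C line against 1646 and 1370 in the WT line, a difference of -0.34 (limma adjusted p = 0.191). Another bright one had 1342 and 1338 in the R150C line against 1182 and 1164 in the WT line, a difference of 0.16. A dimmer one above the filter had 73.5 and 77.1 in the R150C line against 65.6 and 49.4 in the WT line, a difference of 0.30. The brightest and the dimmer Psma6 probe sets are of a type that can share probes with other transcripts. The PTHrP difference of 0.36 in the brightest stood beside -0.00 in the other bright one and 0.12 in the dimmer one. Psmd11, a lid subunit gene with 4 probe sets above the filter, was on the same side between the lines in all of them (0.04 to 0.40), and its PTHrP differences ran from -0.18 to 0.16.

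Lists of genes that act with the particle were set beside it. Of 10 kept partners outside the Psm names, among them Sem1 (a lid subunit), the deubiquitinase genes Uchl5 and Usp14 and the assembly factor gene Pomp, limma called 0 between the lines, with a median of 0.03. Of 8 kept genes of ubiquitin delivery, 0 were called and the median was -0.04, with the unfoldase gene Vcp at -0.31 (limma adjusted p = 0.231). On the list of transcription control genes, Nfe2l1 and Nfe2l2, factors that can drive proteasome genes, did not pass the test. Nfe2l1 had 477.3 and 469.9 in the R150C line (PTHrP, control) against 518.2 and 421.3 in the WT line. Nfe2l2 had 470.4 and 515.1 in the R150C line against 462.1 and 479.4 in the WT line, a fitted difference of 0.04. Of 11 kept genes on that list 2 were called higher and 0 lower, where 5.52% and 4.18% of all kept genes were. The 2 are Maff and Mafk, which encode small Maf proteins, known DNA-binding partners of these factors. Maff had 251.5 and 332.2 in the R150C line against 73.7 and 75.8 in the WT line, a difference of 1.72 (SE 0.16, limma adjusted p = 6.14e-05). Mafk had 248.8 and 236.8 in the R150C line against 107.1 and 111.8 in the WT line, a difference of 1.02 (SE 0.15, limma adjusted p = 0.00157). Keap1, the adaptor that targets Nfe2l2 for degradation, had 140.7 and 148.3 in the R150C line against 236.5 and 193.9 in the WT line, and missed the threshold (-0.55, limma adjusted p = 0.0509). PTHrP gave 0 calls on any of these lists.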

How the data were processed

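The deposited intensity values came from Expression Console, a program of Affymetrix, as the submitters' processing notes list it; its version and settings are not stated there. With 2% of probe sets trimmed from either end, each array's mean signal was 150.1, which shows a global scaling. The members and gene lists were chosen with earlier results of these data known. The 64 control probe sets were left out. Values were taken as log2(signal + 16), the brightest probe set stood for each gene, and 6197 of 12393 genes with a mean at or above the median over genes were kept. Each array was centred on the median of the kept genes, because centring on all probe sets leaves bright genes shifted between arrays. limma 3.58.1 (R 4.3.3) fitted receptor and treatment additively over all kept genes, with Benjamini-Hochberg adjustment at 0.05. With 4 arrays the precision is limited, and p-values reflect the scatter of these arrays alone, which may be technical. On simulated data for R150C minus WT with 6197 genes, limma called 40 of 67 genes changed 1.5-fold, 65 of 67 changed 2-fold and 8 of 5997 unchanged ones. The simulated noise had the same SD for every gene and no shifts between arrays. These counts therefore do not measure how many real changes the test would find on the real arrays. Symbols were updated through Entrez identifiers to RefSeq (GRCm38.p6), except for the members, which keep the platform's symbols. Named were the catalytic, interferon-inducible and activator genes, every called gene, those at least 1.5-fold apart in a pair of arrays, the 3 highest and lowest of each fitted effect, the brightest and dimmest of each role, all below the filter and those with discordant probe sets (opposite signs, at least 0.32 apart). Other members and genes named from the lists were chosen after their values were seen. Figures were drawn with matplotlib 3.10.9. The alternatives were 4 other scalings, 2 pseudocounts, 2 filters, the mean of all probe sets, a variance trend and a fit on probe sets.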

Additional observations from a re-analysis of the deposited data

Results flagged for a closer look

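Psmc5 and Psmd10 responded to PTHrP in opposite directions in the lines, at least 1.5-fold apart, and this difference was not tested, with 1 array per group. Psmc5 responded by -0.27 in the R150C line and by 0.40 in the WT line, a difference of -0.68, from -0.81 to -0.61 over the alternatives. Psmd10 responded by 0.11 in the R150C line and by -0.51 in the WT line, a difference of 0.62. That of Psmd10 was under 1.5-fold when centred on all probe sets (0.49), after quantile normalization (0.52) or cyclic loess (0.55), with a pseudocount of 64 (0.44) and when a gene's probe sets were averaged (0.56), and the gene was not kept by the filter at the 75th percentile. Over all kept genes 3.89% had a difference at least as far down as 1.5-fold and 4.81% as far up.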

How the results depend on the processing

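No paired analysis was possible because each group has 1 array. No proteasome gene was called by limma in either effect under 10 of the alternatives, while the fit with every probe set as a row called 1 lower in the R150C line (the second probe set of Psmc4); over all genes, the calls between the lines ran from 33 without the filter to 781 without centring, against 601. The calls for PTHrP over all genes were 25 when centred on all probe sets and 1 without centring, against 0, with no proteasome gene among them. The median over the proteasome genes ran from -0.11 to -0.04 for R150C minus WT and from 0.05 to 0.20 for PTHrP over both lines, and in single comparisons from -0.17 to -0.09 (R150C minus WT under PTHrP), from -0.04 to 0.09 (the same in control medium), from -0.02 to 0.05 (PTHrP in the R150C line), from 0.06 to 0.30 (PTHrP in the WT line) and from -0.22 to -0.05 (response in the R150C line minus that in the WT line). The value of 0.30 came from centring on all probe sets, where all kept genes had a median of 0.22. Counts at 1.5-fold moved by few genes. R150C minus WT under PTHrP had 1 gene lower, against 0 after cyclic loess and 2 with a pseudocount of 1 or no filter, and in control medium 1 with the mean of all probe sets, against 0. PTHrP in the WT line had 3 genes higher when centred on all probe sets and 1 after quantile normalization, after cyclic loess or without the filter, against 0. For the difference between the responses, the 1 gene upwards (Psmd10) became 0 under centring on all probe sets, quantile normalization, cyclic loess, a pseudocount of 64, the filter at the 75th percentile and the mean of all probe sets. Downwards, the 2 genes became 4 when centred on all probe sets and 1 with cyclic loess, a pseudocount of 64 or the mean of all probe sets. With the mean of all probe sets Psma6 stood at 0.15 and Psme3 at 0.03 between the lines, against -0.34 and 0.40. For both genes that mean takes in probe sets below the filter and probe sets of opposite sign. The cause of the other shifts was not tested.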
